A study of Mus musculus with 18 samples.

Results

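The substantia nigra and the striatum are the 2 ends of the nigrostriatal pathway. They were compared here in the control mice of a study of TUG469, an agonist of the fatty acid receptor GPR40, in the 6-hydroxydopamine (6-OHDA) model of Parkinson's disease. Of the 18 RNA sequencing libraries of the study, 6 enter the comparison: nigra 1, 2 and 3 and striatum 1, 2 and 3 of mice given phosphate-buffered saline (PBS). All mice were wild-type C57BL6. The control mice were not untouched, since PBS had been injected both into the striatum and into the peritoneum, and RNA was taken at 3 weeks. Since the striatum was the injected tissue, a difference between the tissues cannot be told apart from an effect of the local injection. In 2 further groups, with 3 libraries per tissue each, 4 µg of 6-OHDA had been injected into the striatum, followed by PBS or by 10 mg/kg of TUG469 per day into the peritoneum. These groups are used below to see whether the same tissue differences appear in other libraries. They also enter a fit of all 18 libraries and a comparison of the tissue difference between groups of mice. The sources used here do not give the age or sex of the mice or the borders of the dissections. The sex-linked genes, given at the end, read as male.

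The striatum is built almost entirely of inhibitory projection neurons, which carry dopamine D1 or D2 receptors and are driven by cortex and thalamus. The substantia nigra lies in the midbrain and holds the dopamine neurons that innervate the striatum, together with fast-firing GABA neurons of its reticular part. The striatum derives from the telencephalon and the nigra from the floor and the basal plate of the midbrain, so their neurons carry different developmental transcription factors. Axons carry little messenger RNA, so transcripts in a dissected piece come mostly from the cell bodies and glia within it.

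In nigra 20897 genes were listed and in striatum 20257, of which 19401 stood in both tables. After a filter on low counts, 18364 genes were tested with the quasi-likelihood F test of edgeR. Levels are CPM, read counts scaled to library size with TMM factors, fold changes are nigra over striatum on the log2 scale, and a gene is called where its Benjamini-Hochberg adjusted p is at most 0.05. Total counts ran from 52060845 to 57226863 in nigra and from 42242389 to 54800811 in striatum. Nothing in the labels says whether the libraries of the same number come from the same mouse, and p-values measure the spread between these libraries.

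Library 2 stood apart in both tissues. In nigra library 2, several hypothalamic transcripts were far lower. Pmch, the precursor of melanin-concentrating hormone, had 7351, 47 and 5058 reads in nigra 1 to 3, and Oxt, oxytocin, had 1743, 32 and 1036. Avp, Otp and Sim1 were lowest there too. Other hypothalamic genes did not follow: Lhx5 had 375, 487 and 430 reads, Foxb1 420, 265 and 503, and Ghrh 137, 45 and 42. Among dopamine neuron factors listed for nigra only, En1 was highest in nigra 2, at 661 reads against 248 and 433. Foxa1 (194, 66 and 228 reads in nigra 1 to 3), Lmx1a, Lmx1b and Pitx3 were lowest there, and Foxa2 lay between. The level of the 14 listed genes of meninges in nigra 2, a mean of log2(CPM + 1), was 4.05 against 2.86 and 3.14. Striatum library 2 held the lowest level of cortical genes, at 3.93 over 18 genes against 5.45 and 5.33 in the other striatal libraries. The plot of list levels by library shows these gaps, and some of the results that rest on them are given below with and without the library or libraries concerned.

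**Figure D1:**
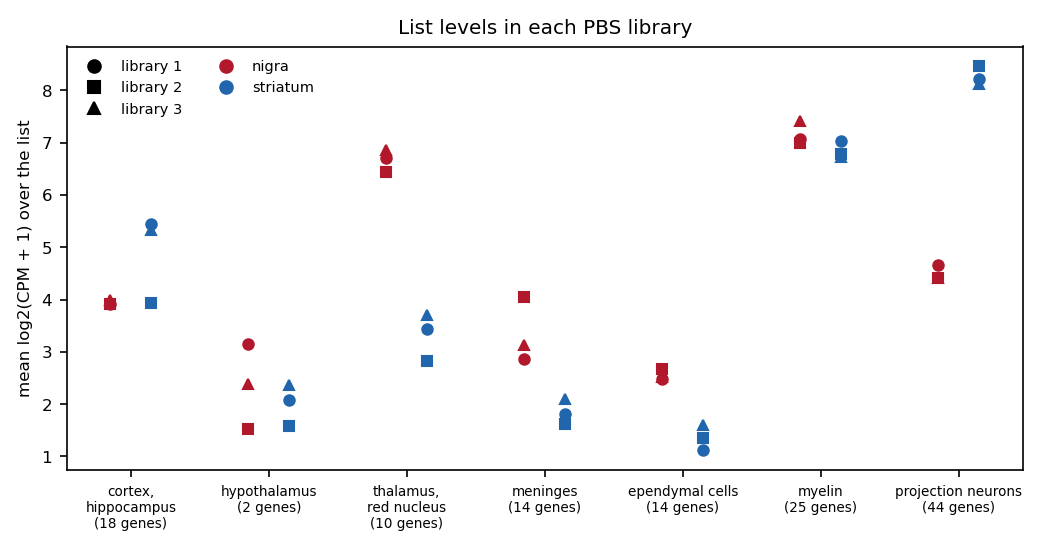
List levels in each PBS library. The y axis is the mean log2(CPM + 1) over the tested genes of a list, red is nigra, blue is striatum, and the symbol gives the library number. Striatum 2 (blue square) lies at 3.93 for cortical genes and nigra 2 (red square) at 4.05 for meningeal genes, each away from the other libraries of its tissue.

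The tissues differed in 9480 of the 18364 genes tested (51.6%). Of these genes, 4792 (26.1% of genes tested) were higher in nigra and 4688 (25.5%) were lower, and the median log2 fold change over all genes tested was −0.0017. With a difference of at least 2-fold added to the call, 1774 genes (9.66%) were higher and 1564 (8.52%) lower in nigra. The 3 nigral and 3 striatal libraries did not overlap in 11384 genes (62%). With limma on log2(FPKM + 1), without TMM factors, in place of edgeR the split moved, to 6832 genes higher and 2914 lower in nigra. Since so much of the transcriptome differed, each count of list members below is to be read against these shares.

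**Figure D2:**
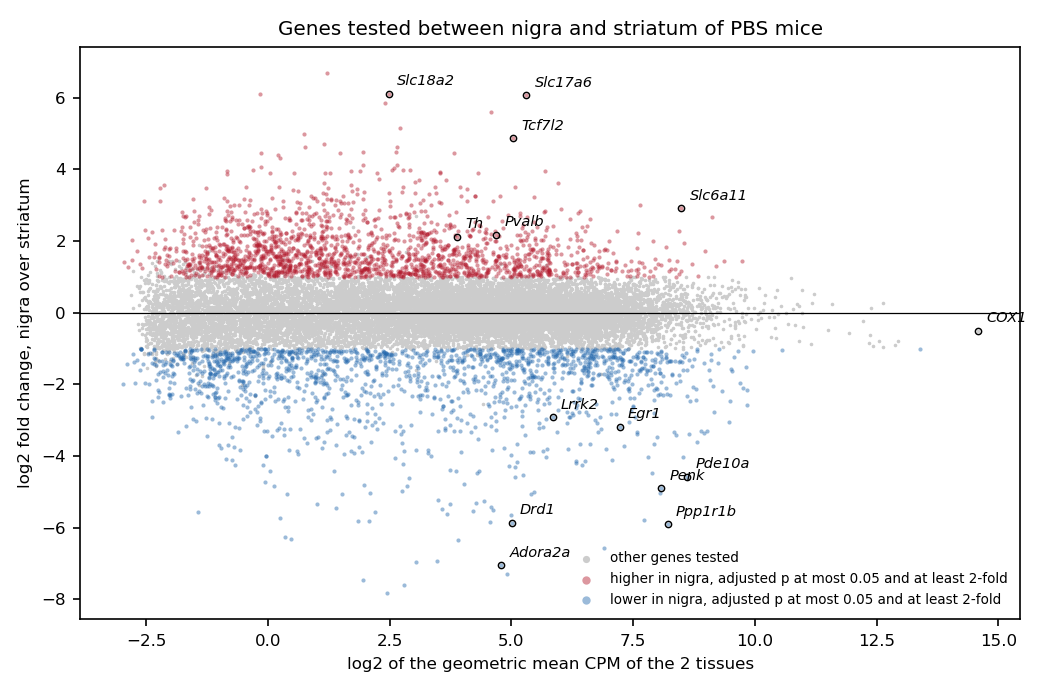
Genes tested between nigra and striatum of PBS mice. The x axis is the log2 of the geometric mean CPM of both tissues and the y axis the log2 fold change, nigra over striatum. Red and blue points pass the adjusted threshold with at least a 2-fold difference, 1774 above and 1564 below 0. The lowest named points, such as Adora2a at −7.04, lie farther from 0 than the highest, such as Slc18a2 at 6.11.

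The genes with the largest fold changes were taken next. The rule for named genes took the largest called fold changes among genes with at least 5 FPKM in the higher tissue. FPKM are fragment counts scaled to transcript length and to library size, and predicted genes were passed over. The 15 genes leading in nigra were Slc18a2, Slc17a6, Ebf3, Calb2, Adcyap1, Tcf7l2, Tph2, Otx2, Ret, Tnnt1, Myoc, Gabrq, Sncg, Prkcd and C1ql2. The 15 leading in striatum included Sh3rf2, Cd4, Lrrc10b, Adora2a, Ptprv, Crym, Ppp1r1b, Drd1, Ankrd63, Ano2, Ddn, Kcnj4 and Gpr6. The 6 most abundant protein-coding genes by FPKM were the same in both tissues, COX1, COX2, ATP6, ATP8, CYTB and ND1, and all are encoded by the mitochondrial genome.

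Genes that make, store and break down dopamine were mostly higher in nigra, though some were not. Of 12 tested genes of this list, 8 were higher in nigra and 2 lower, with a median log2 fold change of 0.91. Slc18a2, the vesicular monoamine transporter that loads dopamine into vesicles (gene 214084, chromosome 19, 59260878 to 59296012 on GRCm38), measured 52.9, 38.8 and 46.2 CPM in nigra and 0.311, 0.878 and 0.839 in striatum. The groups lay far apart, and the log2 fold change of 6.11 (SE 0.300, adjusted p = 6.37e-06) corresponds to a 69.2-fold difference.

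Th, which encodes tyrosine hydroxylase and sets the pace of dopamine synthesis (gene 21823, chromosome 7, 142892779 to 142899995), showed a much smaller gap. It stood at 35.7, 23.7 and 33.2 CPM in nigra and 7.41, 5.63 and 8.11 in striatum, a 4.37-fold difference (log2 2.13, SE 0.192, adjusted p = 8.80e-05). Ddc, the decarboxylase of the next step (gene 13195, chromosome 11, 11814101 to 11898144), was 5.76-fold higher in nigra, at 45.7 ± 6.74 against 7.94 ± 1.62 CPM (mean ± SD, n = 3 libraries per tissue). So the striatal libraries held measurable Th and Ddc, while Slc18a2 stood below 1 CPM in each of them. Gch1, which makes the cofactor of tyrosine hydroxylase, was higher in nigra by 1.89, and Aldh1a1, an aldehyde dehydrogenase of ventral-tier dopamine neurons, by 1.76. Among the breakdown enzymes, Maoa and Maob were higher in nigra by 0.96 and 0.85.

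Slc6a3, the dopamine transporter (gene 13162, chromosome 13, 73536128 to 73578672), was listed for nigra only, with 3618, 2878 and 2780 reads, so no fold change can be given. A gene entered a table only with at least 1 read in every one of that tissue's 9 libraries, and one without a striatal entry may still have reads in some striatal libraries. Chrna6 and Chrnb3, nicotinic subunits of dopamine neurons, were likewise listed for nigra only, with 694 to 741 and 642 to 778 reads. In these libraries of dissected tissue, fewer cells of a type and less RNA per cell cannot be told apart.

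Transcription factors of dopamine neurons divided into those listed for nigra only and those with an entry in both tissues. Of 13 listed factors, 6 (Pitx3, Lmx1a, Lmx1b, En1, Foxa1 and Foxa2) stood in the nigra table only, at 24 to 661 reads. Of the 7 tested, En2, Otx2, Bnc2 and Ebf3 were higher in nigra, with log2 fold changes of 2.73, 4.48, 4.62 and 5.86. Otx2 is also a member of the choroid plexus list. Nr4a1, an orphan nuclear receptor induced by activity, went the other way, at 20.0, 19.5 and 18.3 CPM in nigra against 102, 120 and 105 in striatum (log2 −2.50). Nr4a2, also called Nurr1 and needed for dopamine neurons to form, stood at 16.4, 7.57 and 16.4 CPM in nigra and 28.6, 1.76 and 35.7 in striatum. Its groups overlapped (log2 −0.72, adjusted p = 0.493), and its lowest value came from striatum 2, the library with the lowest cortical genes. Without that library Nr4a2 was lower in nigra (log2 −1.26, adjusted p = 0.0168), as it was without library 2 of both tissues (log2 −0.97, adjusted p = 0.00167).

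Among 18 other tested genes enriched in dopamine neurons, 13 were higher in nigra and 1 lower, with a median of 1.97. Slc17a6 and Cbln1 also stand in the list of thalamus and nearby glutamate neurons below, and Slc17a6 holds the highest value here, 6.08. Ret, the receptor tyrosine kinase for GDNF (gene 19713, chromosome 6, 118151748 to 118197744), measured 68.3, 56.1 and 75.6 CPM against 2.82, 2.01 and 4.12 (log2 4.47). Sncg, gamma-synuclein, was higher in nigra by 3.97 and Cbln1, a secreted synapse organiser, by 3.92. The single member lower in nigra was Gpr83, a G protein-coupled receptor, at 16.3 ± 3.25 against 137 ± 32.3 CPM (log2 −3.07).

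Genes of midbrain GABA neurons were higher in nigra for firing properties and developmental factors, but not for GABA synthesis. Of 22 tested members, 17 were higher and 3 lower in nigra, with a median of 1.40. Vamp1, a vesicle protein of fast-firing terminals (gene 22317, chromosome 6, 125215581 to 125222306), measured 481, 719 and 503 CPM in nigra and 82.8, 66.8 and 61.0 in striatum, without overlap (log2 3.02). Pvalb, the calcium buffer parvalbumin, was higher by 2.18, Nefh, the heavy neurofilament, by 2.63, and Irx3, an Iroquois factor, by 6.10. The 3 members lower in nigra were the machinery of GABA itself. Gad1, which makes GABA, stood at 420 ± 48.3 against 552 ± 65.5 CPM (log2 −0.39), Gad2 had a log2 fold change of −0.35, and Slc32a1, the vesicular GABA transporter, one of −0.83. Gad1 did not pass without nigra 1 or nigra 3 (adjusted p 0.0756 and 0.0740), nor Gad2 without any of the nigral libraries, striatum 2 or striatum 3 (0.0610 to 0.120), and neither passed with limma (0.194 and 0.403). A further 7 members, among them Gata3, Sox14 and Lhx1, stood in the nigra table only.

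Signalling genes of the projection neurons were lower in nigra without exception among those tested. All 44 tested members of that list were lower by at least 2-fold, with a median log2 fold change of −3.78, and Ido1 stood in the striatum table only. All 44 were lower in nigra in both other groups of mice as well. The list was made of genes known to mark the striatum, so its direction follows largely from that choice. The other lists of neuronal markers of either tissue were chosen in the same way, and their main direction is to be read likewise. Ppp1r1b, which encodes DARPP-32, the phosphatase inhibitor that integrates dopamine signals (gene 19049, chromosome 11, 98348406 to 98357796), measured 47.6, 37.5 and 29.7 CPM in nigra and 2149, 2924 and 1774 in striatum. It was 59.7-fold higher in striatum, yet with 38.3 CPM it was not a rare transcript in nigra. Sh3rf2 and Cd4 showed the widest gaps, with log2 fold changes of −7.82 and −7.59, and Spock3 the narrowest, with −1.42.

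The D1 and D2 pathways could be set side by side. Drd1, the D1 receptor of the direct pathway (gene 13488, chromosome 13, 54051183 to 54055658), measured 5.84, 3.59 and 3.19 CPM in nigra and 226, 287 and 219 in striatum, a 58.0-fold difference. Drd2 (gene 13489, chromosome 9, 49340360 to 49408177), which is the receptor of the indirect pathway and also the autoreceptor of dopamine neurons, was 12.8-fold lower in nigra, at 22.4, 26.2 and 22.9 against 312, 342 and 256 CPM. Adora2a, the adenosine receptor that D2 neurons share (gene 11540, chromosome 10, 75316877 to 75334792), was 132-fold lower, at 4.18, 1.46 and 1.63 against 311, 315 and 327. None of these 3 receptors overlapped between tissues. Within nigra, Drd2 stood at 8.18 ± 0.727 FPKM and Drd1 at 1.13 ± 0.383.

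The cyclic AMP cascade of the projection neurons followed. Adcy5, the striatal adenylyl cyclase, had a log2 fold change of −3.36, Gnal, the alpha subunit of Golf, −2.12, Gng7, its gamma partner, −5.02, Pde10a, which degrades cyclic AMP and cyclic GMP, −4.58, and Rgs9, a brake on G protein signalling, −4.47. Each is known to be expressed outside the striatum as well, and their nigral levels ranged from 46.5 CPM for Gng7 to 211 for Gnal.

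Of 20 tested striatal transcription factors, 15 were lower in nigra and 1 higher, with a median of −1.61. Bcl11b, also called Ctip2, had a log2 fold change of −4.20, Foxp1 one of −3.07 and Meis2 one of −3.06. Zfp521, with 0.25, was the member higher in nigra, and it did not pass without nigra 1, nigra 2, striatum 1 or striatum 3 (adjusted p 0.0534 to 0.111). Dlx2, Dlx5 and Dlx6, homeobox genes of the ganglionic eminence, stood in the striatum table only, and Dlx6 had 1155, 1140 and 1165 reads.

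Interneuron genes were mixed. Of 17 tested, 9 were lower and 4 higher in nigra. Chat, which makes acetylcholine in the striatal cholinergic interneurons, stood at 5.32, 5.61 and 6.41 CPM in nigra and 20.1, 40.6 and 26.8 in striatum (log2 −2.33). Lhx6, a factor of interneurons born in the medial eminence, had −3.86 and Npy, neuropeptide Y, −2.45. Calb2, calretinin, a calcium buffer of a striatal interneuron class but also of many midbrain and thalamic neurons, stood at 168 ± 17.7 CPM in nigra and 3.37 ± 2.20 in striatum (log2 5.61).

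**Figure D3:**
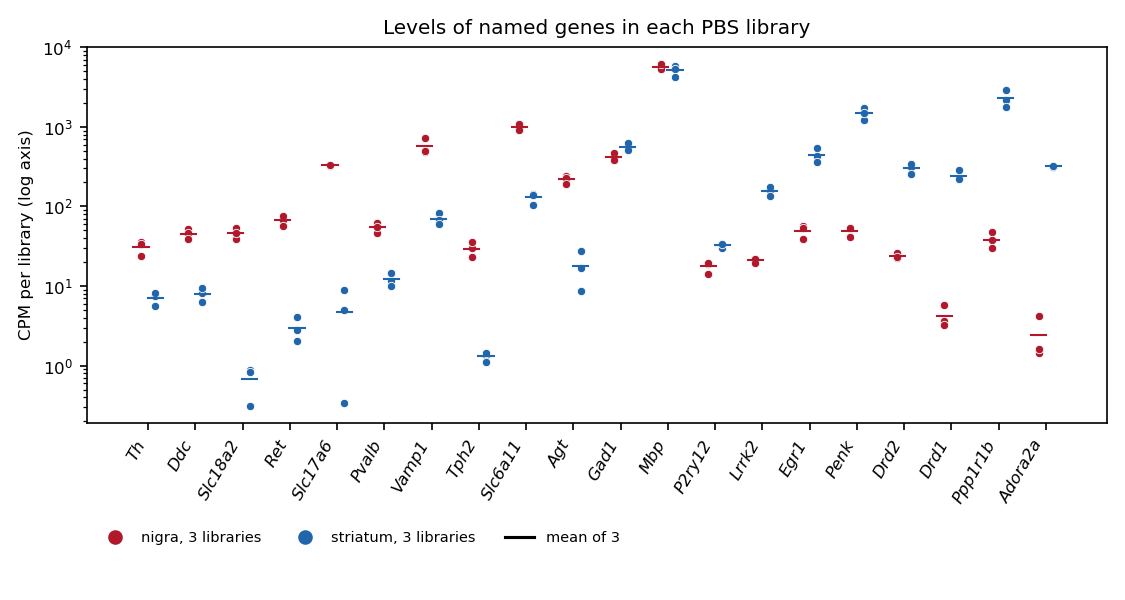
Levels of named genes in each PBS library. The y axis is CPM on a log axis, each point is 1 library (red nigra, blue striatum) and each bar the mean of 3. Of the genes drawn, Gad1 and Mbp lie closest between the tissues, and Slc18a2 and Adora2a lie among the farthest apart.

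Peptide precursors were split between the tissues: of 22 tested, 6 were higher and 8 lower in nigra, and the median was 0.06. Penk, proenkephalin of the D2 neurons (gene 18619, chromosome 4, 4133536 to 4138815), measured 53.4, 53.5 and 40.8 CPM in nigra and 1213, 1723 and 1485 in striatum, a 29.9-fold difference. Pdyn and Tac1, the dynorphin and substance P precursors of the D1 neurons, had log2 fold changes of −3.42 and −2.91. Sst, somatostatin, stood at 53.1 ± 3.80 against 152 ± 16.1 CPM (log2 −1.51).

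On the other side, Adcyap1, the precursor of PACAP, was higher in nigra by 5.16, Pnoc, the nociceptin precursor, by 3.38 and Cartpt, the CART precursor, by 3.27. Cartpt stood at 41.0, 73.9 and 63.3 CPM in nigra and 1.97, 0.465 and 15.7 in striatum, so the striatal libraries differed widely among themselves (SE 0.931, adjusted p = 0.0202), and it did not pass without striatum 1 (log2 2.84, adjusted p = 0.0680). A further 6 precursors stood in the nigra table only, among them Pmch, Oxt and Avp, whose reads came almost entirely from nigra 1 and 3.

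Several of these genes are textbook targets of the cyclic AMP response element (CRE), bound by CREB. The 250 bases before the RefSeq start are shown for Th and for 3 peptide precursors that went in opposite directions, to let the element be seen in its place. The full element TGACGTCA, which reads the same on both strands, and the variant TGCGTCA, searched on both strands, are in capitals and were counted separately. Coordinates are on GRCm38.p6. The Th window is chr7:142899996-142900245 on the minus strand, the Cartpt window chr13:99900684-99900933 on the minus strand, the Sst window chr16:23890845-23891094 on the minus strand and the Tac1 window chr6:7554811-7555060 on the plus strand.
Th: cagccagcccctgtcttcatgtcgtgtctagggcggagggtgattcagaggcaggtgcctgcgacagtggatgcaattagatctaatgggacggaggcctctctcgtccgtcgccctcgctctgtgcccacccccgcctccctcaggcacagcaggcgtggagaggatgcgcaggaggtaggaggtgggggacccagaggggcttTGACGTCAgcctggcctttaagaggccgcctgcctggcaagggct
Cartpt: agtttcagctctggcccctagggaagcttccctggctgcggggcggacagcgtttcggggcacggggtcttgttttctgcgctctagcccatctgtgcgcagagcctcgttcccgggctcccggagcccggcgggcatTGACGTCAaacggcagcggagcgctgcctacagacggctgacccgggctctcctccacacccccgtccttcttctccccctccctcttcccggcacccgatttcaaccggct
Sst: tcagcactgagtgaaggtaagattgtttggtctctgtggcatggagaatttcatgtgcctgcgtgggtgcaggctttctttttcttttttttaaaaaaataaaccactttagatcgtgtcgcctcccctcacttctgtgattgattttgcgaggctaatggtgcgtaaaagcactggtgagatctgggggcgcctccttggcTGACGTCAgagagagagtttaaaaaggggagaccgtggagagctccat
Tac1: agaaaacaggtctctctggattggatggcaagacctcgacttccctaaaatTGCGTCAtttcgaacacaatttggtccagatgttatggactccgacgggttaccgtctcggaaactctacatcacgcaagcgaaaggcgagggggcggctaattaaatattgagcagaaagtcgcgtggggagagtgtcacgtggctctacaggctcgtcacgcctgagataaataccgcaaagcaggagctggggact
The element begins 45 bases before the start in Th, 112 in Cartpt and 48 in Sst, and the variant 199 bases before the start in Tac1. Cartpt, with the element, was higher in nigra, and Sst, with the same 8 letters, was lower. Of 23 peptide precursors with a promoter entry, 4 (Cartpt, Sst, Scg2 and Ucn) held TGACGTCA and 3, Tac1 among them, held TGCGTCA. Over all 27025 genes with an entry the shares were 1.77% and 2%. A match describes letters and does not show that CREB binds there.

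Receptors for transmitters other than GABA and glutamate went both ways: of 27 tested, 10 were higher and 13 lower in nigra. Beside the dopamine and adenosine receptors above, Chrm4 and Chrm1, muscarinic receptors of projection neurons, were lower, with −5.26 and −4.54. Chrm2, the muscarinic autoreceptor, was higher in nigra by 2.20, Htr7, a serotonin receptor, by 2.83 and Oprm1, the mu opioid receptor, by 1.58.

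None of the 7 tested nicotinic subunits was called lower in nigra, and 4 were called higher. Chrna3, a subunit of habenular and brainstem receptors, stood at 12.8, 11.3 and 14.8 CPM in nigra and 0.934, 0.646 and 0.879 in striatum (log2 3.97). Chrna4 and Chrnb2, which form the common high-affinity receptor, were higher by 2.25 and 0.74.

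Of 17 GABA receptor subunits, 10 were higher and 5 lower in nigra, with a median of 0.69. Gabrb2, the beta-2 subunit of synaptic receptors, was higher by 0.89. Gabra4 and Gabrd, which form extrasynaptic receptors, were lower, with −1.16 and −2.15, and Gabra4 did not pass with all 18 libraries in 1 fit (adjusted p = 0.0703). Gabrd stood at 29.9, 12.2 and 35.9 against 115, 119 and 112 CPM. All 5 tested glycine genes differed. Glra3, a receptor subunit, was higher in nigra by 3.35 and Slc6a9, the glial glycine transporter, by 1.70, while Gphn, the scaffold gephyrin, had −0.26 and did not pass with limma (adjusted p = 0.593).

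Every tested glutamate receptor gene was called, 10 higher and 15 lower in nigra, with a median of −0.67. Among those lower, Gria2, an AMPA receptor subunit, had −1.01, Grin2b, an NMDA receptor subunit, −1.08 and Grm5, a metabotropic receptor, −1.60. Grin2d, the NMDA subunit of midbrain and other brainstem neurons, stood at 62.3, 63.0 and 68.7 CPM in nigra and 13, 10.4 and 14.0 in striatum (log2 2.37). Grm2, a presynaptic receptor, was higher by 3.34 and Grik1 by 2.04.

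Ion channel genes were nearly evenly split. Of 63 tested sodium, calcium, potassium and HCN channel genes, 26 were higher and 25 lower in nigra, 20 and 14 of them by at least 2-fold. Kcnj4, an inward rectifier of the projection neurons, stood at 5.81, 2.18 and 5.43 CPM in nigra and 219, 237 and 214 in striatum (log2 −5.64). Kcnip2, a partner of Kv4 channels, had −4.24 and Scn4b, a sodium channel beta subunit, −3.29.

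The 4 Kv3 genes, Kcnc1 to Kcnc4, which let neurons fire fast, were all higher in nigra, with 1.28, 2.61, 1.44 and 2.28. The T-type calcium channel Cacna1g was higher by 2.43, the pacemaker channel Hcn4 by 2.44 and the GIRK subunit Kcnj5 by 3.18. Kcnj6, the GIRK2 subunit used as a marker of ventral-tier dopamine neurons, did not pass: it stood at 85.5, 69.6 and 91.7 CPM against 50.6, 7.93 and 40.0 (log2 1.32, adjusted p = 0.0730), with striatum 2 far below the other striatal libraries. Without striatum 2 it was higher in nigra by 0.86 (adjusted p = 0.00401), without library 2 of both tissues by 0.97 (adjusted p = 0.00147), and with limma by 1.19 (adjusted p = 0.0306).

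Transcripts of regions around both dissections were examined next, as they move with the tissue. Slc17a6, the vesicular glutamate transporter of thalamus and midbrain (gene 140919, chromosome 7, 51621830 to 51671126), measured 321, 332 and 336 CPM in nigra and 4.94, 0.336 and 8.99 in striatum, a 67.6-fold difference. Of the 10 tested genes of thalamus, red nucleus and nearby glutamate neurons, 9 were higher in nigra, with a median of 3.60. Tcf7l2, a factor of thalamus and pretectum, was higher by 4.86 and Prkcd, a kinase strong in thalamus, by 3.96. The nigra table alone listed 7 further members, among them Pou4f1, the red nucleus and habenula factor, with 702, 772 and 872 reads, and Shox2 with 3013 to 4058.

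Tph2, which makes serotonin in raphe neurons, stood at 22.9, 30.1 and 35.4 CPM in nigra and 1.34, 1.11 and 1.46 in striatum (log2 4.49), and Slc6a4, the serotonin transporter, had 937 to 1629 reads in nigra only. None of 15 Hox and hindbrain genes stood in either table. Of 14 hypothalamic genes, 8 stood in the nigra table only. How much of each nigral difference comes from these neighbouring nuclei was not tested.

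On the striatal side, 11 of 18 cortical and hippocampal genes were lower in nigra and 4 higher. Tbr1, a factor of cortical projection neurons, stood at 40.8, 2.58 and 31.1 CPM in the striatal libraries and 2.07, 0.399 and 1.99 in nigra (log2 −4.06), and did not pass with limma (adjusted p = 0.0714). Slc17a7, the cortical vesicular glutamate transporter, stood at 337, 27.1 and 254 CPM in striatum and 76.2, 21.9 and 90.3 in nigra, and did not pass (log2 −1.71, adjusted p = 0.122), whereas without striatum 2 it was lower in nigra (log2 −2.24, adjusted p = 0.0120), as it was without library 2 of both tissues (log2 −1.83, adjusted p = 0.000287). Without library 2 of both tissues, 13 of the 18 genes were lower in nigra. Rasgrf2, Prox1, Cux2 and Rorb, cortical or hippocampal genes that other regions share, were the 4 higher in nigra, with 2.22, 1.40, 1.29 and 1.14. Cux2 did not pass without nigra 2, nigra 3 or striatum 1 (adjusted p 0.0536 to 0.0756).

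Glial classes differed in opposite directions. Microglial genes were lower in nigra: of 20 tested, 17 were lower and none higher, all 20 had a negative fold change and the median was −0.83. P2ry12, a purinergic receptor of resting microglia (gene 70839, chromosome 3, 59216271 to 59262985), measured 19.2, 14.3 and 19.6 CPM in nigra and 34.0, 30.2 and 33.9 in striatum (log2 −0.89). Trem2 had the widest gap, with −1.20, and Tmem119 and Cx3cr1 had −0.82 and −0.80. The striatum was also the tissue injected with PBS, and region and injection cannot be told apart here.

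Astrocyte genes did not move as a block. Of 32 tested, 20 were higher and 7 lower in nigra, with a median of 0.63. Slc6a11, the GABA transporter GAT3 of astrocytes (gene 243616, chromosome 6, 114131241 to 114249886), measured 974, 1075 and 906 CPM in nigra and 144, 106 and 141 in striatum (log2 2.92). Agt, angiotensinogen, was higher in nigra by 3.63, at 220 ± 27.0 against 17.7 ± 9.65 CPM, Myoc by 3.99 and Igsf1 by 3.89. Gfap, the intermediate filament, was higher by 1.26. The glutamate transporters went the other way: Slc1a2, or GLT-1, stood at 1672, 1723 and 1689 CPM in nigra and 3008, 3249 and 2966 in striatum (log2 −0.86), and Slc1a3 had −0.62. Crym, a thyroid hormone binding protein of striatal astrocytes and neurons, was lower by the widest margin of this list, with −6.92, at 1.77, 0.658 and 0.609 against 83.8, 139 and 143 CPM. Aldh1l1, a folate enzyme used as an astrocyte marker, stood at 65.4 ± 2.69 against 58.8 ± 2.43 CPM (log2 0.15). It did not pass, but did with upper quartile factors (adjusted p = 0.0402), with all 18 libraries in 1 fit (0.0363) and with limma (0.00419).

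Myelin genes differed by small amounts. Of 25 tested, 11 were higher in nigra, none lower and none by 2-fold, with a median of 0.28. The number of called myelin genes was 3 without striatum 2, 4 without nigra 3 and 6 without nigra 1 or without striatum 3. Of 13 genes of oligodendrocyte precursors, 5 were higher and 1 lower in nigra, and the higher ones numbered 2 without nigra 1 and 3 without nigra 3, striatum 2 or striatum 3. Of 19 genes of vessels 6 were higher and 1 lower. Genes of meninges were higher in nigra in 12 of 14, with a median of 2.18, which was 1.38 without library 2 of both tissues (11 of 14 higher). Dcn, decorin, stood at 13.6, 23.7 and 15.1 against 2.82, 2.58 and 4.00 CPM.

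**Figure D4:**
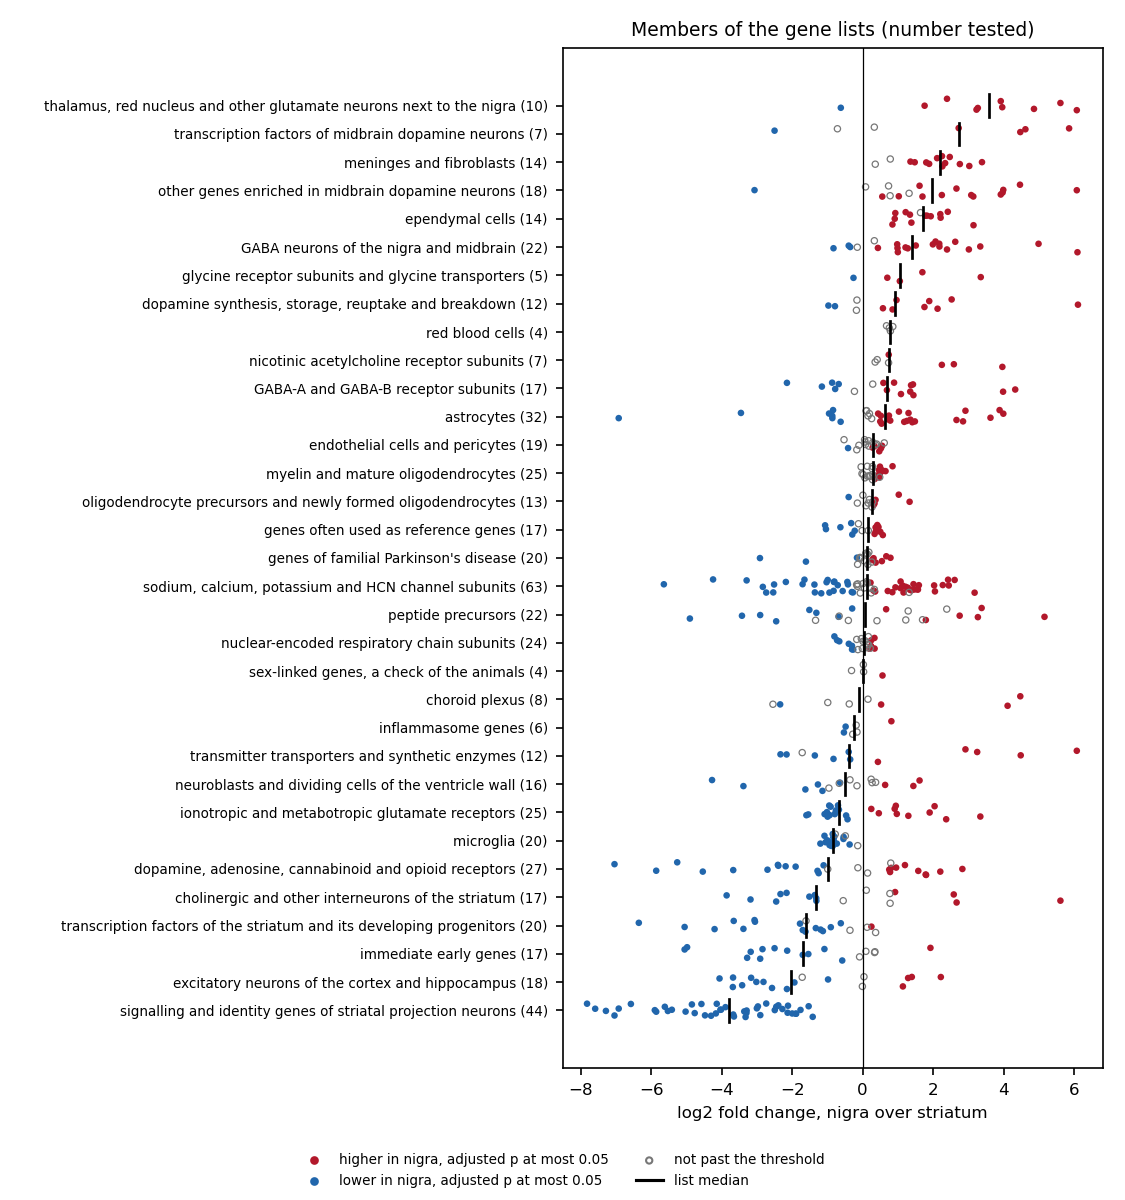
Members of the gene lists. Each point is a tested gene at its log2 fold change, nigra over striatum, filled where the adjusted p is at most 0.05 and open where it is not, and the black bar is the list median. Projection neuron genes have a median of −3.78, thalamic and nearby genes one of 3.60, and myelin genes crowd near 0.28.

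Among genes mutated in familial Parkinson's disease of humans, the widest differences were on the striatal side. Of 20 tested, 6 were higher and 3 lower in nigra, and the median was 0.12. Lrrk2, a kinase (gene 66725, chromosome 15, 91672791 to 91816124), measured 21.7, 21.8 and 19.2 CPM in nigra and 160, 177 and 136 in striatum, 7.54-fold higher in striatum without overlap. Another gene lower in nigra, Park7 (−0.16), no longer passed when any single library was left out (adjusted p 0.0509 to 0.152), nor with DESeq2 (0.0678) or limma (0.437). Dnajc6, auxilin, Vps13c and Atp13a2 were higher in nigra by 0.79, 0.67 and 0.55, all under 2-fold.

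Of the genes the study was built on, Ffar1, which encodes GPR40, and Il1b stood in neither table. Nlrp3 stood at 0.809 ± 0.0734 CPM in nigra and 0.982 ± 0.117 in striatum and did not pass (log2 −0.28, adjusted p = 0.298). Nek7, an activator of NLRP3 with many other roles, was higher in nigra by 0.82, at 74.4 ± 7.57 against 42.2 ± 1.22 CPM. Il18 and Gsdmd, an inflammasome product and its pore, were lower, with −0.48 and −0.53, and Gsdmd did not pass without nigra 1, nigra 3, striatum 1 or striatum 2 (adjusted p 0.0740 to 0.131), nor with limma (0.0633) or without the filter (0.0533).

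Immediate early genes were lower in nigra in 12 of 17, with a median of −1.70. Egr1 stood at 56.3, 53.6 and 38.7 CPM in nigra and 549, 433 and 362 in striatum (log2 −3.18), Arc had −2.91, Junb −3.28 and Egr3 −5.05. Not every member followed. Fos stood at 17.8, 13.6 and 11.7 against 11.4, 11.4 and 11.1 CPM and did not pass (log2 0.35, adjusted p = 0.0898), while without nigra 3 it was higher in nigra (log2 0.48, adjusted p = 0.0306). Bdnf, a growth factor made in cortex and thalamus and carried to the striatum, was higher in nigra by 1.93 (adjusted p = 0.0491), at 18, 17.2 and 20.0 CPM against 5.29, 0.439 and 8.61. Its lowest value came from striatum 2, and it did not pass without nigra 1, 2 or 3 or striatum 1 (adjusted p 0.0783 to 0.120), nor with DESeq2 (0.0888) or without the filter (0.0539).

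Respiratory chain transcripts come from the mitochondrial and the nuclear genome. All 13 messenger RNAs of the mitochondrial genome, a family set up after values had been seen, were lower in nigra, from −0.50 for COX1 to −1.03 for ATP8. With limma on log2(FPKM + 1), the 6 named above kept this direction but did not pass (adjusted p 0.0522 to 0.611), and COX1 did not pass in edgeR without nigra 1 (adjusted p = 0.0502). ND3, of complex I, stood at 338, 304 and 383 CPM in nigra and 555, 629 and 747 in striatum, without overlap. Of 24 nuclear-encoded subunits, 6 were higher and 7 lower in nigra, with a median of 0.04, and those lower included Cox8a (−0.73) and Cox5b (−0.66). These counts lie near the shares over all genes tested. In 6-OHDA mice 18 of the 24 were higher and 1 lower in nigra, with a median of 0.31, and in TUG469 mice 16 and 2, with a median of 0.27. Of all counts, the mitochondrial genome supplied 7.27% to 7.77% in nigra and 9.94% to 11.5% in striatum. Actb, used as a reference gene, was lower in nigra by more than 2-fold, with −1.06, and 14 of 17 reference genes tested were called in 1 direction or the other.

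Genes listed for 1 tissue only numbered 1496 for nigra and 856 for striatum. Of these, 645 and 254 were protein coding and 621 and 423 long noncoding RNAs. Most were rare: the median of their mean counts was 12.7 in nigra and 11.3 in striatum, and 91 and 51 had a mean of at least 100 reads. With predicted genes passed over, the 12 protein-coding nigra-only genes with the highest FPKM were Pmch, Oxt, Avp, Shox2, Slc6a3, Lhx9, Slc6a4, Mab21l1, Ucn, Irx2, Lbhd2 and Gata3. The first 3 owe their rank to nigra 1 and 3. The 12 for striatum included Dlx6, Dlx5, Ido1, Asb11, Egr2, Strit1, Lhx8, Olfr1393, Nkx2-1, Tmprss6 and Impg1. Lhx8 and Nkx2-1, factors of cholinergic and other interneurons, had 354 to 487 and 290 to 398 reads.

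The tissue differences appeared again in the other mice, whose libraries the comparison above does not use. Of the genes higher in nigra in PBS mice, 78.6% passed in the same direction in 6-OHDA mice and 78.9% in mice given 6-OHDA and TUG469. For genes lower in nigra the shares were 81.9% and 80.8%. In the opposite direction 24 and 13 genes passed in 6-OHDA mice, and 1 and 3 in TUG469 mice. In those mice 26.9% and 27% of genes tested were called higher in nigra, and 26.8% and 25.6% lower. Slc18a2 had log2 fold changes of 6.42 and 5.96, Adora2a −7.23 and −7.46, and Lrrk2 −2.94 and −2.80 in 6-OHDA and TUG469 mice. Th had 2.73 and 1.22.

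Motile cilium genes were mostly not called higher in nigra in the other mice. In PBS mice 13 of 14 ependymal genes were higher in nigra, with a median of 1.71. In 6-OHDA mice none was higher and 3 were lower, with a median of −0.54, and in TUG469 mice 2 were higher, with a median of 0.28. Dnah11, an axonemal dynein (gene 13411, chromosome 12, 117877982 to 118199043), measured 4.29, 4.66 and 3.80 CPM in nigra and 0.584, 1.11 and 0.719 in striatum of PBS mice (log2 2.42), and had −0.56 in 6-OHDA mice. Foxj1, which turns on motile cilia, stood at 19.4, 23.1 and 23.1 against 8.39, 7.93 and 11.8 CPM. In 1 fit of all 18 libraries, 29 of 18749 genes differed in their tissue difference between 6-OHDA and PBS mice, and 0 between TUG469 and PBS mice, where 1892 had an unadjusted p under 0.05.

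**Figure D5:**
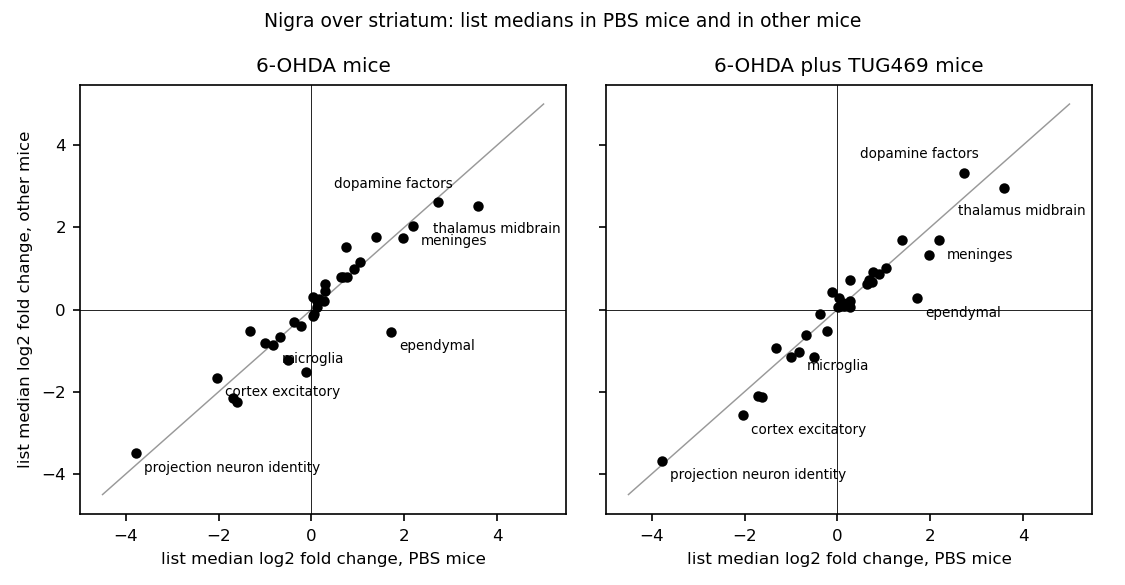
List medians in PBS mice and in other mice. The x axis is a list's median log2 fold change, nigra over striatum, in PBS mice and the y axis the same in 6-OHDA mice (left) or 6-OHDA plus TUG469 mice (right), with the line of equality. Most lists lie near the line, and the ependymal list lies at −0.54 and 0.28 on the y axis against 1.71 on the x axis.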

How the data were processed

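RNA was measured in 18 libraries from substantia nigra and striatum, of which the 6 of PBS mice enter the main comparison. Per the labels' protocols, RNA was purified on columns and made into stranded libraries of polyadenylated RNA. The submitters' processing notes name FastQC 0.11.7, Trim Galore 0.38, STAR 2.7.3a, Cufflinks and the build GRCm38, and they do not state the strand setting of the counting, so a gene and an overlapping antisense gene may share reads. The deposited values are raw read counts and FPKM for each gene and library, computed by the authors and named so per the file headers, with 1 table per tissue. Each table holds only genes with at least 1 count in all 9 of its libraries, so genes listed for 1 tissue have no fold change here. Of the 19401 genes in both tables, 19349 matched the RefSeq gene table.

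Counts were tested with edgeR 4.0.16 (R 4.3.3) by its quasi-likelihood F test, with TMM factors (0.917 to 1.07), 2 groups of 3 libraries and no covariate. The function filterByExpr (count 10, total 15) retained 18364 genes. Calls use Benjamini-Hochberg adjusted p of at most 0.05 over all genes tested. The biological coefficient of variation was 0.145 with 4 residual degrees of freedom. Tested on counts simulated for nigra against striatum of PBS mice over 18269 genes, the test recovered 83 of 100 genes changed by 1 on the log2 scale and 97 of 100 changed by 2, with 10 false calls. The simulation changed only these genes, up and down alike. It gave every gene the same spread and had no library standing apart. Far more genes differ in the data, so these figures do not measure how the test performs on them.

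The alternatives were DESeq2 1.42.0, other scaling factors, no filter, a replicate block, all 18 libraries, limma 3.58.1 on log2(FPKM + 1), a test against a 2-fold difference, and leaving out each library. The members and the 36 gene lists were chosen with earlier results of these data known, and lists of gene families were added after the values were seen, as was leaving out library 2 of both tissues. Named genes are members of the lists, the 15 per direction with the largest called fold change, at least 5 FPKM and no overlap, the 12 highest of each table alone and the 6 most abundant. Predicted genes were passed over for the 15 and the 12. The values of some genes are not reported here.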

Additional observations from a re-analysis of the deposited data

Results flagged for a closer look

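In 1 edgeR fit of all 18 libraries, the difference between the tissues was itself compared between 6-OHDA mice and PBS mice, with p-values adjusted over 18749 genes, and 3 of the genes described above differed. For Dnah11, the nigra minus striatum log2 difference was 2.42 in PBS mice and −0.56 in 6-OHDA mice, a change of −2.985 (adjusted p = 0.0127). For Cox5b it was −0.66 and 0.23, a change of 0.8798 (adjusted p = 0.0127), and for Cox8a −0.73 and −0.09, a change of 0.622 (adjusted p = 0.0493). Among all 29 genes with such a difference, 17 changed upward and 12 downward. The downward ones include the cilium genes Daw1 (−3.54), Dnah5 (−2.01) and Cfap54 (−1.64), and the upward ones the respiratory chain genes Cox5a (0.70), Ndufc2 (0.52) and Cox7c (0.49). These 6 were picked after their values were seen. Both comparisons use different libraries for each group of mice, and whether dissection or treatment moved the values was not tested.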

How the results depend on the processing

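Leaving out 1 library at a time gave 3923 to 4520 genes higher and 3780 to 4480 lower in nigra, and 1603 to 1871 and 1494 to 1634 with the 2-fold rule. DESeq2 gave 4973 and 4631. With limma on log2(FPKM + 1), 2914 genes were lower, and 924 higher and 646 lower by 2-fold. A test against a 2-fold difference left 776 higher and 827 lower. With limma, 6 cortical genes and 4 nuclear respiratory genes were lower, and 10 vessel genes and 12 familial Parkinson's genes were higher. Without library 2 of both tissues, called genes higher in nigra numbered 7 for myelin, 3 for precursors, 3 for vessels, 2 for blood and 1 for hypothalamus. Leaving out single libraries gave 3 to 11 for myelin, 2 to 5 for precursors and 0 to 1 for hypothalamus. Of the inflammasome genes 1 was lower with upper quartile factors, without a filter, with the block, with limma and without library 2 of both tissues, and 1 to 2 without single libraries. Park7 reversed with limma (0.045), and Ttr, not called, ran from −3.78 without nigra 1 to 1.28 without striatum 1. The limma setting took FPKM as given, without TMM factors. In it COX1 moved from −0.50 to −0.29, Gad1 from −0.39 to −0.18 and Park7 from −0.16 to 0.045, all upward. The median of the dopamine neuron transcription factors fell from 2.73 to 0.67. Of 157 named genes tested, 101 kept direction and side of the threshold under all 17 settings. The cause of these changes was not tested.

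With the replicate number as a block, 4877 genes were higher and 4728 lower, 1799 and 1564 by 2-fold, and 4 blood genes were higher. Slc17a7 (−1.35, adjusted p = 0.0171) and Kcnj6 (1.62, adjusted p = 0.0242) passed with the block, and Park7 (adjusted p = 0.0706) and Gsdmd (0.0549) did not. Deviations of same-numbered libraries from their group means correlated at −0.05, 0.237 and 0.353 across genes. Those of libraries with different numbers correlated at −0.317 to 0.068. Deviations from the mean of 3 libraries are not independent, so these values cannot decide whether the numbers pair the libraries. The main comparison leaves a possible pairing out.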

Other observations

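Gene families chosen after the values were seen add to the picture of signalling. All 4 cerebellin genes, secreted organisers of synapses, were higher in nigra, with a median of 3.18, and Cbln2 stood at 44.9, 56.0 and 45.3 CPM against 6.60, 1.16 and 7.15. All 5 Zic genes, zinc finger factors of the dorsal neural tube, were higher as well, with a median of 2.40. Of 9 adenylyl cyclases 4 were higher and 3 lower. Adcy8, a cyclase stimulated by calcium, was higher by 3.13, at 47.5, 43.7 and 59.1 CPM against 6.05, 4.05 and 6.97, and Adcy7 by 2.43.

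Of 17 Rgs genes, brakes on G protein signalling, 6 were higher and 9 lower, from Rgs16 with 3.47 to Rgs14 with −4.77. Of 11 calmodulin kinases 8 were lower and 3 higher, with Camk4 at −2.90 and Camk2d at 2.02. Of 9 protein kinase C genes 7 were lower, Prkcb by −2.46 on the log2 scale, and 2 higher. Diacylglycerol kinases were lower in 6 of 10 and higher in 3, and phosphodiesterases lower in 8 of 20 and higher in 4. G protein beta and gamma genes were higher in 4 of 14 and lower in 6. Among 19 synaptotagmins and complexins, 7 were higher and 7 lower, and Cplx2 had −2.10 where Cplx1 had 0.56. Of 31 semaphorins and plexins 16 were higher and 6 lower, and Plxnd1 had −3.19.

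The remaining lists gave these counts. Of 12 transmitter transporters and synthetic enzymes tested, 5 were higher and 6 lower. Both tested serotonin and noradrenaline genes were higher. Of 8 choroid plexus genes 3 were higher and 1 lower, and Ttr, transthyretin, stood at 147, 5.04 and 2.30 CPM in striatum and 19.1, 3.59 and 3.92 in nigra, so 1 striatal library holds most of it. Of 16 neuroblast genes 3 were higher and 6 lower. None of 4 globin genes and neither of the 2 tested hypothalamic genes passed in the main edgeR fit, and 1 of 4 sex-linked genes did. Those 4 genes, Ddx3y, Eif2s3y, Kdm5d and Uty, lie on the Y chromosome. Their mean log2(CPM + 1) was 5.295 to 5.484 in the PBS libraries. Xist stood in neither table, so the libraries read as male. Of 17 reference genes 8 were higher and 6 lower.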
